A study of Mus musculus with 3 samples.

Results

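The pseudogenes described here (the members) are the 487 rows of the expression table that were annotated with a pseudogene type and reached 20 FPKM or more in each of the 3 libraries. FPKM (fragments per kilobase, scaled to the counts of the library) is a level per length assigned to the gene. The rows Gm29216, Gm28437 and Gm10925 were left out by name. Without them the table held 13691 pseudogene rows, of which 3.56% reached the threshold, and 10.6% of the 4585 that had a count in at least 1 library. The levels chose the pseudogenes and are therefore given as a description, with no test of their own.

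The libraries were made from wild-type (WT) mouse vestibular cells with a black, ball-like appearance. The labels called the cells macrophages, whereas the series title spoke of melanocytes. The labels give 18 cells and 9 mice in all, with 3 mice to a group, and the SMART-Seq HT kit, which primes on the poly(A) tail, for amplification. All 3 libraries (replicates 1 to 3) belonged to this 1 group, and no control group was labelled. The number of cells behind each library is not stated, and in such summed RNA fewer cells of a type and less RNA per cell cannot be told apart.

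A processed pseudogene arises when the mRNA of a parent gene is copied into DNA and inserted elsewhere in the genome, so it has no introns and resembles the spliced transcript. An unprocessed pseudogene arises by duplication of genomic DNA, and fragments of the mitochondrial genome inserted into the nucleus are annotated in the same class. Highly expressed housekeeping genes, above all those for ribosomal proteins, have left many processed copies in mammalian genomes, and some copies are transcribed.

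The libraries held 18460546, 15086854 and 14095521 counts in replicates 1, 2 and 3. Of 10 macrophage markers, 9 reached 1 FPKM in every library, but the integrin gene Itgam lay between 0.0736 and 0.421 FPKM and the pan-leukocyte gene Ptprc between 0.145 and 0.437 FPKM. Of 8 melanocyte markers, 7 reached 1 FPKM in every library, and Mitf lay between 0.231 and 1.21 FPKM. The summed level of the 8 was 226 to 323 FPKM, against 2001 to 2995 FPKM for the macrophage markers. Most of the macrophage sum was the single gene Lyz2, with 2610, 1574 and 1806 FPKM in replicates 1, 2 and 3. All 4 markers each of fibrocytes and of hair cells also reached 1 FPKM in every library, with sums of 4414 to 5842 FPKM and 129.9 to 170.03 FPKM. The summed level of 5 erythroid genes was 8760, 13424 and 24185 FPKM in replicates 1, 2 and 3, and no gene of these lists was at 0.

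The 487 pseudogenes held 4.79%, 4.72% and 5.61% of all counts in replicates 1, 2 and 3, or 5.04% ± 0.491 (SD, n = 3). They took 78.9%, 70.3% and 80.7% of the counts of all pseudogenes in the same libraries. That total includes the 3 rows left out by name, which held 0.651%, 1.48% and 0.687% of all counts and so lower the share most in replicate 2. Their mean level had a median of 99.5 FPKM, with quartiles of 50.9 and 200 FPKM. Of the 487, 242 averaged 100 FPKM or more, 11 averaged 1000 FPKM or more, and 119 averaged less than 50 FPKM. They were short, with a median length of 468 bp and a range of 78 to 2255 bp. They lay on 20 chromosomes, with the most, 41, on chromosome 2 and none on chromosome Y. The 20 with the highest mean level took 31.8% of the counts of the whole set.

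The highest level was that of Gm10123 on chromosome 9, a processed copy closest to Ppia, the gene for the prolyl isomerase cyclophilin A. It measured 3844, 5259 and 3980.0 FPKM in replicates 1, 2 and 3. The pseudogene matched the Ppia transcript at 100% identity over its whole length. Replicate 2 was the highest, and the other 2 libraries lay close together.

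Ubb-ps, a copy of the polyubiquitin gene Ubb, reached 4173, 3073 and 2935 FPKM in replicates 1, 2 and 3. Gpx4-ps2, a copy of the gene for the lipid peroxide reductase glutathione peroxidase 4, reached 2946, 3150.3 and 3832 FPKM. Both were annotated as transcribed processed pseudogenes, as were 20 of the 487 in all. These 20 had a median mean level of 206 FPKM, against 95.6 FPKM for the 458 of the plain processed type.

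Gm15590, closest to the ferritin light chain gene Ftl1-ps1 (typed protein-coding in the table despite its symbol), had 2263, 1976 and 2311 FPKM in replicates 1, 2 and 3. Ferritin stores iron. Oaz1-ps, a copy of the gene for antizyme 1, an inhibitor of polyamine synthesis, had 1560.0, 1278 and 1434 FPKM. Tpt1-ps3, a copy of the translationally controlled tumor protein gene Tpt1, had 1264, 1227 and 1596 FPKM. In these the highest library was within 1.5 times the lowest.

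Several of the other leading members were copies of ribosomal protein genes. Gm12918 and Gm15710, both closest to Rpl13 (large ribosomal subunit), averaged 1451 ± 454 and 1045 ± 347 FPKM (SD, n = 3). Gm14303, closest to Rps29 (small subunit), averaged 987 ± 477 FPKM. Their highest value was in replicate 3 each time.

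The following copies were also highest in replicate 3. Gm10250, closest to Atp5pd, had 836, 959 and 1501 FPKM in replicates 1, 2 and 3, and Gm14539, closest to Atp5mk, had 494, 746 and 1374 FPKM. Gm12338, closest to the cytochrome c oxidase subunit gene Cox7c, had 586, 745 and 1505 FPKM. Cd63-ps, a copy of the gene for the late endosome and melanosome tetraspanin CD63, had 414, 774 and 1310.0 FPKM, the widest ratio of highest to lowest library among the leading 20. Gm12350, the last of these 20, is closest to Chchd2, which encodes a mitochondrial protein, and had 623, 643 and 747 FPKM.

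**Figure D1:**
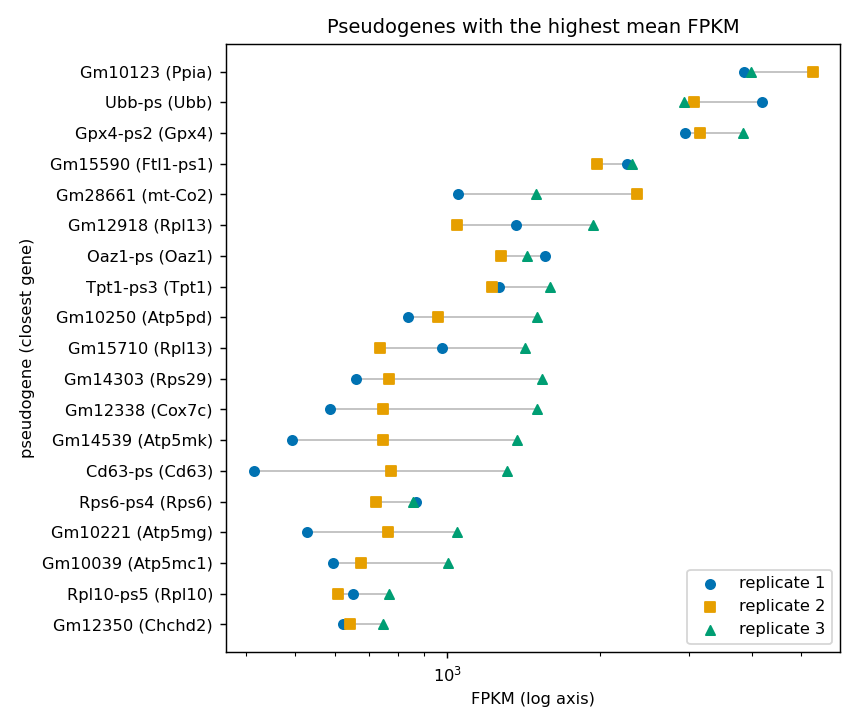
Level of 19 of the 20 pseudogenes with the highest mean FPKM (log axis) in each of the 3 libraries, with the closest protein-coding gene in parentheses and a grey line spanning the lowest to the highest library. Gm10123 spans 3844 to 5259 FPKM, and Cd63-ps spans 414 to 1310.0 FPKM.

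By type, 478 of the 487 were processed and 9 were unprocessed; none was of another type. The processed ones were 4.64% of 10305 annotated processed pseudogenes and 11.2% of those with a count. The unprocessed ones were 0.292% of 3079 annotated and 3.20% of those with a count. Processed members took 4.63%, 4.37% and 5.43% of the counts of replicates 1, 2 and 3, and unprocessed members 0.169%, 0.351% and 0.175%. The median mean level was 98.5 FPKM over the processed members and 127 FPKM over the unprocessed ones, but 48.2 FPKM over the 3 unprocessed ones that are no mitochondrial copies.

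Of the 9 unprocessed members, 6 were closest to a mitochondrially encoded gene and formed 2 clusters. The first cluster lay within chr1:24650616-24654646 (GRCm39), and its 4 members were closest to mt-Co2, mt-Nd4, mt-Nd3 and mt-Nd4l, which encode subunits of cytochrome c oxidase and of complex I. Gm28661, closest to mt-Co2 at 100% identity, had 1050.2, 2366 and 1494 FPKM in replicates 1, 2 and 3. Gm28439, closest to mt-Nd4 at 100% identity, had 466, 1167 and 265 FPKM. Gm28438 and Gm10222 averaged 127 and 60.3 FPKM. Replicate 2 was the highest for Gm28661, Gm28439 and Gm10222, and replicate 3 for Gm28438. Of the summed counts of mt-Co2 and its pseudogenes, 47.9% on average were assigned to the pseudogenes. For mt-Nd3, mt-Nd4l and mt-Nd4 the share was 47.6%, 46.7% and 16.3%. How reads matching both copies were divided is not stated, so the levels of these nuclear copies are uncertain.

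The second cluster lay within chr2:22478115-22480545 (GRCm39). Its Gm13340, closest to mt-Co1 at 97.6% identity, had 171, 318 and 123 FPKM in replicates 1, 2 and 3, and its Gm13339, closest to mt-Nd2 at 96.7% identity, had 41.3, 83.4 and 156 FPKM. The 3 rows left out by name took a further 0.651%, 1.48% and 0.687% of the counts of replicates 1, 2 and 3, also highest in replicate 2.

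Only 3 unprocessed members had a closest gene in the nuclear genome. Vdac3-ps1, a copy of the gene for an outer mitochondrial membrane channel, had 280.1, 291 and 134 FPKM in replicates 1, 2 and 3. Its 853 bases aligned without gaps to the spliced Vdac3 transcript, so its sequence resembled a processed copy despite the annotated type. Gm43712, closest to the elongation factor gene Eef1b2, had 27.6, 37.1 and 79.96 FPKM. Ccl19-ps3, identical to the chemokine gene Ccl19 over its aligned transcript, had 22.2, 30.1 and 24.5 FPKM. Without the mitochondrial copies, 3 of 3072 annotated unprocessed pseudogenes, or 0.0977%, reached the threshold.

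**Figure D2:**
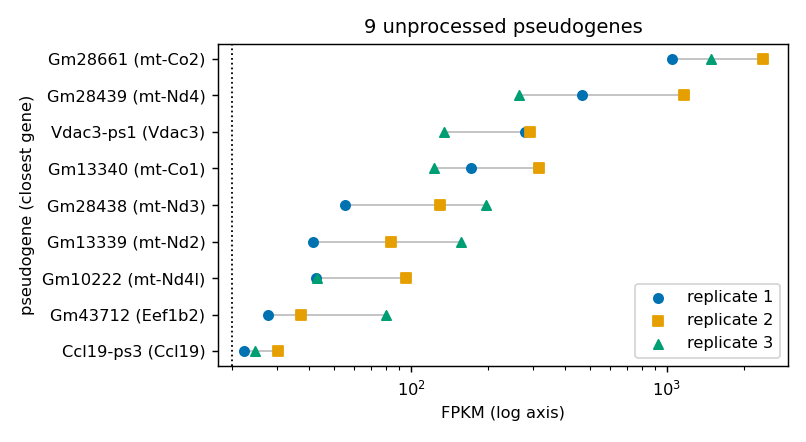
Level of the 9 unprocessed pseudogenes in each library (FPKM, log axis), with the closest gene in parentheses, a grey line from the lowest to the highest library and a dotted line at 20 FPKM. The copies of mt-Co2 and mt-Nd4 are the highest, and Ccl19-ps3 lies just above the line with 22.2 to 30.1 FPKM.

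At the threshold, the values left no gap. The 4 members with the lowest minimum were Gm6361, Mrpl27-ps, Gm7079 and Gm5451, whose lowest library lay between 20.2 and 20.6 FPKM. The 4 pseudogenes just outside were Gm12168, Gm11249, Gm1866 and Gm6900, whose lowest library lay between 19.8 and 19.99 FPKM.

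The libraries differed most for Tmed2b, annotated as a processed pseudogene and closest to the vesicle coat gene Tmed2, with 176, 97.4 and 26.4 FPKM in replicates 1, 2 and 3. Next came Gm5963 and Rps12-ps9, closest to Rps21 and Rps12, which were highest in replicate 3 with 116 and 286 FPKM, and Gm28439 and Gm6565, highest in replicate 2. Over all members the SD of log2(FPKM + 1) between libraries had a median of 0.42, against 0.35 for the 1440 protein-coding genes that met the same threshold.

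Grouped by the function of the closest gene, ribosomal protein copies were the largest group, with 179 of the 487 members and a median mean level of 109 FPKM. They took 1.53%, 1.38% and 2.30% of the counts of replicates 1, 2 and 3. Of the 179, 163 were highest in replicate 3, 14 in replicate 1 and 2 in replicate 2. With values scaled to an equal sum per library (TPM) the count in replicate 3 was 154, and with trimmed-mean (TMM) scaling it was 157. Among their 45 different named ribosomal protein parents, 40 were highest in replicate 3 as well. Of the 308 other members 146 were highest there in FPKM (47.4%), and of the 1440 protein-coding genes at the same threshold 655 (45.5%). In TPM these shares were 40.6% and 34.9%, and with TMM scaling 39.6% and 36.3%. The erythroid genes were also highest in replicate 3, and their part in this order was not tested.

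The 28 copies of respiratory chain and ATP synthase genes had a median of 224 FPKM, and 26 of them were highest in replicate 3. For comparison, 20.7% of all members were highest in replicate 1 and 15.8% in replicate 2, and of the protein-coding genes at the same threshold 28.8% and 25.7%. The 25 copies of chromatin protein genes, such as the Hmgb1 and H3f3a copies, had a median of 79.5 FPKM, and 4 were highest in replicate 3. The 23 copies of ubiquitin, SUMO and proteasome genes ranged from 25.4 to 3393 FPKM, with 12 highest in replicate 2. In TPM 9 were highest in replicate 2 and equally 9 in replicate 1. Of 9 copies of glycolytic enzyme genes, 7 were highest in replicate 1, or 8 in TPM. Further groups were translation factors (22 members), RNA processing (20), chaperones and folding (17), endosome, lysosome and autophagy (15) and cytoskeleton (13).

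A parent was named by the symbol or description of 159 members, which had 112 different parents. In FPKM, 120 of the 159 (75.5%) lay above the parent in every library, 28 lay below it in every library, and 11 were mixed. Over all 522 counted pseudogenes with a named parent, 151 (28.9%) lay above it, and over the 363 that are not among the 487, 31 did (8.54%). The choice of pseudogenes by level enters this count, which is given as a description. The median difference in log2(FPKM + 1), pseudogene minus parent, was 2.07, 2.10 and 2.16 in replicates 1, 2 and 3, and 2.17 for the mean over libraries.

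This direction depended on the length used. The deposited FPKM divided each pseudogene by its own short span. The length implied for the parents had a median of 3631 bp, against 1009 bp for the parent transcript closest to the pseudogene. For some parents the implied length exceeded the annotated span of the whole gene. For Rps13 it was 8365 bp at chr7:115930740-115933430, and for Rpl9 10922 bp at chr5:65545707-65548787. The FPKM of such parents is therefore not a level per length of a transcript. In CPM, counts scaled to the library with no gene length, 53 of the 159 lay above the parent in every library and 94 below, and the median log2 difference was -0.65. With the parent's count divided by the length of that closest transcript, 92 of 157 pseudogenes lay above the parent by their mean and the median was 0.37. For 68 pairs the pseudogene lay above its parent in FPKM and below it in CPM. The sources used here do not say how reads matching both copies were assigned. The division of counts between a pseudogene and its parent or closest gene is therefore uncertain. This holds for every pair named below and for the pseudogenes named above.

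**Figure D3:**
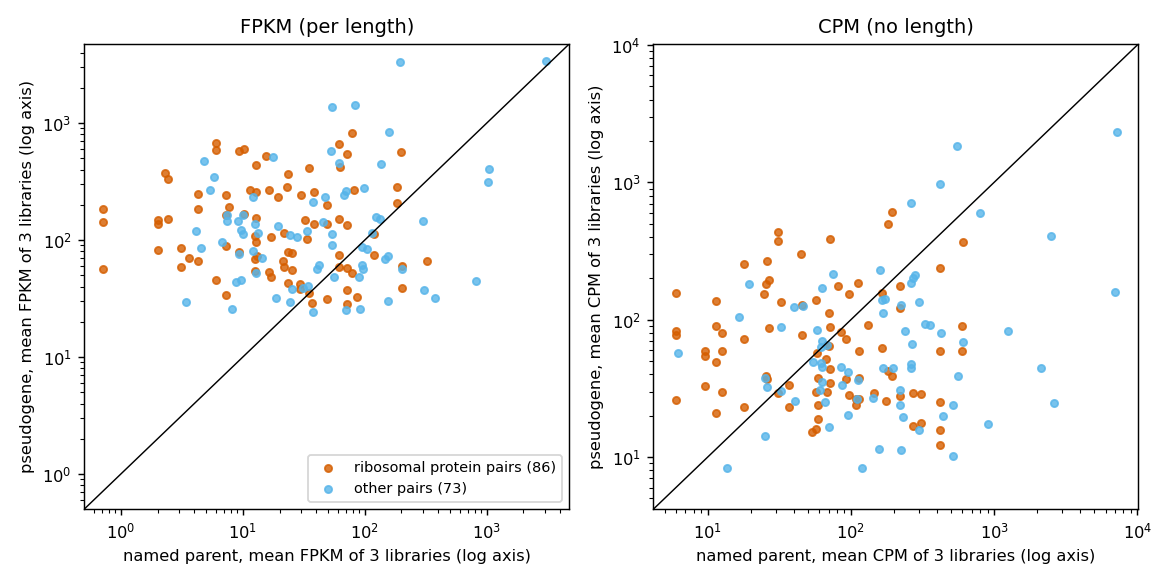
Mean level of each of 159 pseudogenes (vertical, log axis) against that of its named parent (horizontal, log axis), in FPKM on the left and in CPM on the right, with the line of equal level; orange points are ribosomal protein pairs and blue points the others. In FPKM 120 pairs lie above the line in every library, and in CPM 53.

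Ribosomal protein pairs showed the widest differences. Rpl28-ps1 had 290, 262 and 577 FPKM in replicates 1, 2 and 3, against 1.91, 1.55 and 3.42 FPKM for Rpl28. The log2 difference was 6.79 ± 0.21 (SD, n = 3). In counts the pseudogene had 2214, 1639 and 3368, against 92, 61 and 126 for the parent, so it was higher in every library on both scales. The 2 transcripts were identical over the aligned length.

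Rpl10-ps5, on chromosome 8, had 651, 608 and 765 FPKM in replicates 1, 2 and 3, against 4.61, 4.87 and 8.46 FPKM for Rpl10 on chromosome X. Its counts were 14.8 times those of the parent on average. Rpl10-ps1 had 592, 551 and 610.5 FPKM beside the same parent, and Rps13-ps2 had 127, 157 and 268 FPKM, against 0.505, 0.571 and 1.07 FPKM for Rps13. In these pairs every pseudogene value lay above every parent value. Over the 86 ribosomal protein pairs, 72 pseudogenes lay above the parent in FPKM, with a median log2 difference of 2.71, and in CPM 39 lay above and 43 below.

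Within a single family the copies differed widely. Rps19 had 5 members with its name, more than any other parent. Rps19-ps6 stood 2.88 ± 0.15 above the parent on the log2(FPKM + 1) scale and Rps19-ps2 stood 0.82 ± 0.29 above it (SD, n = 3). Rps19-ps3 and Rps19-ps4 had differences of -0.95 ± 0.10 and -1.34 ± 0.08. Rps19-ps6 shared 67.6% of its 50-base windows with protein-coding transcripts, Rps19-ps2 47.0%, and Rps19-ps3 24.7%. In CPM all 5 had a lower mean than Rps19.

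Among other housekeeping pairs, Gpx4-ps2 exceeded its parent Gpx4, which had 175, 181 and 233 FPKM in replicates 1, 2 and 3, by 4.07 ± 0.04 log2 units (SD, n = 3). Its counts, 30186, 26378 and 29976, also exceeded the 9037, 7653 and 9232 of Gpx4. Oaz1-ps exceeded Oaz1 by 4.08 ± 0.07 and Tpt1-ps3 exceeded Tpt1 by 4.67 ± 0.27 log2 units, and both had more counts than the parent in every library. In all, 53 pseudogenes had more counts than the parent in every library.

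Pdcd5-ps, a copy of the gene for programmed cell death 5, had 381, 407 and 644 FPKM in replicates 1, 2 and 3, against 3.48, 4.51 and 6.36 FPKM for Pdcd5. Psenen-ps, a copy of the gene for a gamma-secretase subunit, had 270, 388 and 373 FPKM, against 4.46, 5.73 and 7.10 FPKM for Psenen. Both lay above the parent in counts too. Of 7 endosome, lysosome and autophagy copies with a named parent, 6 lay above it in FPKM, but in CPM 1 lay above and 5 below in every library. Ap2m1-ps, a copy of the clathrin adaptor gene Ap2m1, had 211, 147 and 137 FPKM, against 11.9, 6.76 and 11.5 FPKM for Ap2m1. Cd63-ps lay 2.31 ± 0.37 log2 units above Cd63 in FPKM, while in CPM its mean difference was -0.50.

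Of 4 respiratory chain and ATP synthase copies with a named parent, 3 lay above it in FPKM, and in CPM 2 lay above and 1 below in every library. Ndufab1-ps, a copy of the gene for the mitochondrial acyl carrier protein, had 216, 255 and 333 FPKM in replicates 1, 2 and 3, against 4.34, 5.21 and 6.66 FPKM for Ndufab1, and its mean log2 difference in CPM was 1.41. Atp5pb-ps had 60.7, 54.9 and 53.1 FPKM, against 92.6, 116 and 79.6 FPKM for the ATP synthase gene Atp5pb. Of 8 mitochondrial ribosome, import and channel copies, 7 lay above the parent in FPKM, but in CPM 3 lay above and 5 below in every library. Mpc1-ps, a copy of the pyruvate carrier gene Mpc1, had 525, 592 and 436 FPKM, against 17.5, 19.2 and 16.3 FPKM for Mpc1.

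Copies of glutathione and peroxide enzymes went both ways. Glo1-ps, a copy of the glyoxalase gene Glo1, had 126, 153 and 77.7 FPKM in replicates 1, 2 and 3, against 3.67, 5.25 and 3.50 FPKM for Glo1, and its mean log2 difference in CPM was -0.08. Gpx2-ps1 had 199, 163 and 75.7 FPKM, against 409, 349 and 144 FPKM for the glutathione peroxidase gene Gpx2. Both copies were lowest in replicate 3. Of 8 translation factor copies, 4 lay above the parent and 4 below in FPKM, but in CPM 1 lay above and 7 below in every library. Btf3-ps1, a copy of the nascent chain factor gene Btf3, had 314, 263 and 215 FPKM, against 82.8, 73.2 and 56.2 FPKM for Btf3, with a mean log2 difference of -0.79 in CPM. Eif1-ps2 had 25.6, 22.5 and 41.7 FPKM, against 155, 132 and 181 FPKM for the initiation factor gene Eif1.

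The opposite order was found for several of the most strongly expressed parents. Ftl1-ps2 had 42.1, 35.5 and 56.9 FPKM in replicates 1, 2 and 3, against 939, 835 and 692 FPKM for the ferritin light chain gene Ftl1, a log2 difference of -4.18 ± 0.52 (SD, n = 3). By sequence Ftl1-ps2 is closest not to Ftl1 but to Ftl1-ps1, which is typed protein-coding. Ftl1-ps1 averaged 5296 FPKM over the libraries, above the 822 FPKM of Ftl1. Eef1a1-ps1 lay below Eef1a1, the main elongation factor gene, by nearly the same amount in each library, -3.53 ± 0.01. Fth1-ps had 323, 248 and 369 FPKM, against 1221, 962 and 864 FPKM for the ferritin heavy chain gene Fth1. Ldhb-ps had 510, 316 and 384 FPKM, against 1447, 718 and 948 FPKM for the lactate dehydrogenase gene Ldhb. Ftl1-ps2, Eef1a1-ps1, Fth1-ps and Ldhb-ps also lay below the named parent in CPM.

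Some copies stood at about the level of the parent in FPKM. Ubb-ps differed from Ubb, which had 3733, 2934 and 2457 FPKM in replicates 1, 2 and 3, by 0.16 ± 0.10 log2 units (SD, n = 3), and its counts were 0.321 times those of Ubb. Prdx2-ps1, a copy of the peroxiredoxin gene Prdx2, had a log2 difference of -0.01 ± 0.14. Over the 73 pairs outside the ribosomal proteins, 48 pseudogenes lay above the parent in FPKM, with a median of 1.76, and in CPM 14 lay above and 51 below.

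How closely such copies match is shown for 4 members by the 90 bases of the aligned coding region, without gaps, that hold the most differences, taken from the reference transcripts of GENCODE M21 by gene identifier. Capitals mark the bases at which the 2 sequences differ, and the pseudogene stands first. Gm15590 is shown as the leading ferritin copy, and Rpl10-ps5 for a pair with a wide difference in level. Vdac3-ps1 is shown as a copy annotated as unprocessed, and Ftl1-ps2 as the copy furthest below its named parent. The closest transcript of Ftl1-ps2, shown beside it, is not that of the named parent Ftl1 but that of Ftl1-ps1.
Gm15590: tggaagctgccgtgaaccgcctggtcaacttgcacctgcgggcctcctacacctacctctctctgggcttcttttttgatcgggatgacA
Ftl1-ps1: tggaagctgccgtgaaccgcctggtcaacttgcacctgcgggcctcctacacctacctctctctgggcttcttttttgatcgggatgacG
Rpl10-ps5: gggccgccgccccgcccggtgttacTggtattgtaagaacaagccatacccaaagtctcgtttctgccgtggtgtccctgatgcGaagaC
Rpl10: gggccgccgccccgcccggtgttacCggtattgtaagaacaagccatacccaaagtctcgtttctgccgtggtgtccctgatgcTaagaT
Vdac3-ps1: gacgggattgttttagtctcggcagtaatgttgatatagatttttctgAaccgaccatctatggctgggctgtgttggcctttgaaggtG
Vdac3: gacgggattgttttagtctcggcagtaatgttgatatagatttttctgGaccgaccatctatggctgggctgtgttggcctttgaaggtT
Ftl1-ps2: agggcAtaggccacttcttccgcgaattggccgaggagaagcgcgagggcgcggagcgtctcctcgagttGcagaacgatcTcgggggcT
Ftl1-ps1: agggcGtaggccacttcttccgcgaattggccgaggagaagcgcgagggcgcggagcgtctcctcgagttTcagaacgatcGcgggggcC

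Over the whole alignment Gm15590 differed from the Ftl1-ps1 transcript at 3 of 552 bases, and Rpl10-ps5 from Rpl10 at 3 of 642, all 3 within the printed stretch, which left an identical run of 550 bases. Vdac3-ps1 differed from Vdac3 at 4 of 853 bases. Ftl1-ps2 differed from the Ftl1-ps1 transcript at 10 of 549 bases, with a longest identical run of 93 bases.

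The level of the parents was not itself used to choose the pseudogenes and was tested. A parent enters, however, only through a copy that reached the threshold, and the division of reads between them is uncertain. The shares called are therefore not independent of the choice by level. With limma's moderated one-sided test against 20 FPKM on the log2(FPKM + 1) scale, adjusted by Benjamini-Hochberg over 27265 genes, 46 of the 112 parents were called above 20 FPKM, or 41.1%. Over all genes tested 4.98% were called, and over protein-coding genes 5.76%. Of the 45 ribosomal protein parents 12 were called, and of the 67 other parents 34. The test used the deposited FPKM and with it the long lengths implied for the parents. Nothing in the labels says that the libraries came from separate animals, so these p-values measure the spread between libraries, which may be technical. Fits without replicate 1 or without replicate 2 called 0 parents and 0 genes in all, with 52 and 54 parents at an unadjusted p under 0.05, and the fit without replicate 3 called 28 parents.

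Ubb averaged 3041 ± 644 FPKM (SD, n = 3; adjusted p = 0.00114 by limma), and Gpx4 averaged 196 ± 32.4 FPKM (adjusted p = 0.00114 by limma). Oaz1 (adjusted p = 0.00179 by limma) and Tpt1 (0.0238) were called as well, at 82.8 ± 4.64 and 54.2 ± 19.4 FPKM. Rpl28, Rpl10, Rps13 and Pdcd5, among the parents whose copies stood furthest above them, lay below 20 FPKM in every library and were not called (adjusted p = 1 by limma). The length behind the FPKM of Rpl28, Rpl10, Rps13 and Pdcd5 was 2615, 5156, 8365 and 4060 bp. Their transcripts closest to a copy had 1106, 799, 589 and 684 bp, and levels by that length were not tested. Hmgb1, a chromatin protein gene by whose symbol 2 of the copies are named, averaged 37.4 ± 9.70 FPKM and was not called (adjusted p = 0.101 by limma). On a list of 162 genes known as parents of many processed pseudogenes, 76 of 160 tested were called (47.5%). On this list 33 of 86 tested ribosomal protein genes were called (38.4%), and 43 of 74 tested others (58.1%).

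Among the members with a named parent, the difference between pseudogene and parent followed the identity of their sequences. The choice by level enters this order too, and it is given only for pairs of members. Among the 157 pairs with an alignment the median identity was 99.2%. In 26 pairs the aligned part, at least 80% of the pseudogene, was identical, and these are called identical here. Pairs whose reference length did not match the length behind the FPKM, such as that of Gpx4-ps2, were kept. Of 14 pairs at 97% identity or less, 3 pseudogenes lay above the parent in FPKM and the median log2 difference was -1.02. Of 51 pairs above 97% and up to 99%, 29 lay above, with a median of 0.34. Of 66 pairs above 99% but not identical, 62 lay above, with a median of 3.00, and of the 26 identical pairs 24 lay above, with a median of 4.06. The order was the same in CPM, with medians of -3.72, -1.95, -0.01 and 1.17, and per length of the closest transcript, with -2.86, -0.66, 0.84 and 2.08. Across the same 4 classes the median parent level was 118, 48.7, 15.97 and 10.8 FPKM.

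Sequence shared with coding transcripts was also read for all counted pseudogenes whose reference length matched the length behind the deposited FPKM, 466 members and 3924 others. In the members a median of 64.3% of the 50-base windows occurred exactly in a protein-coding transcript, against 8.19% in the other counted pseudogenes. The median identity to the closest protein-coding transcript was 99.1% in members and 94.5% in the others. Of these, 464 members and 3395 others had a closest protein-coding transcript. Among them, an open reading frame of at least 95% of the coding length of the closest gene was present in 61.2% of members and 16.6% of the others. Windows found in neither a coding transcript nor another pseudogene made up a median of 28.2% in members and 83.5% in the others, and 74 members had no such window.

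The share of counted pseudogenes at 20 FPKM or more in every library was higher in each class with more shared windows. With no shared window, 2 of 826 reached it, and with up to 25% shared 25 of 2121 (1.18%). With above 25% and up to 50% shared 122 of 642 reached it (19.0%), and with above 50% and up to 75% 143 of 416 (34.4%). With above 75% but not all windows shared 116 of 262 did (44.3%), and with all windows shared 58 of 122 (47.5%). The 2 members with no shared window were Gm4825 and Gm46611, closest to Rpl27 and to Rps27rt.

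**Figure D4:**
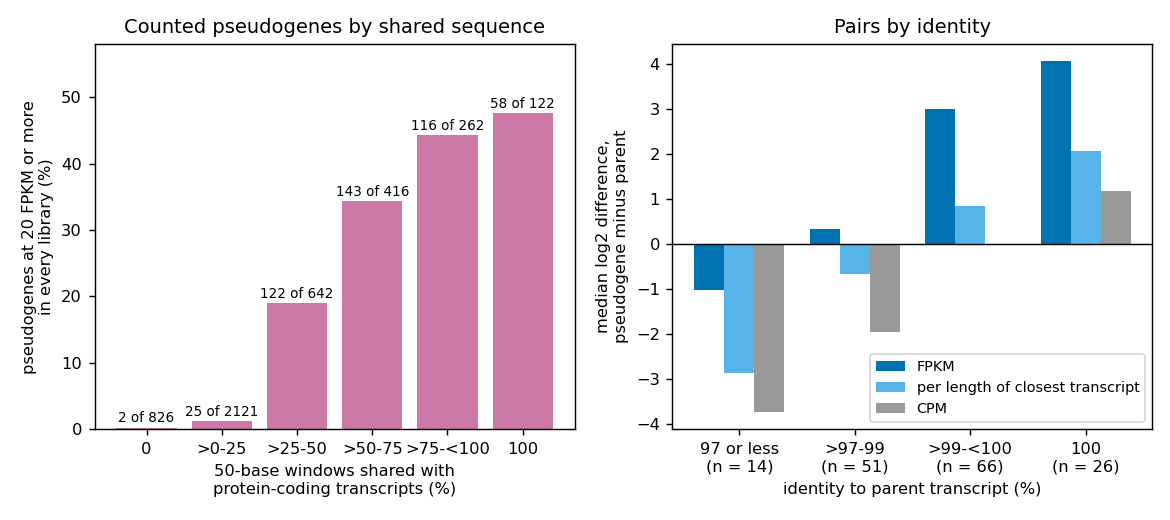
Left, percentage of counted pseudogenes at 20 FPKM or more in every library by the share of their 50-base windows found in protein-coding transcripts, with counts above the bars. Right, median log2 difference, pseudogene minus parent, by identity of the pair in FPKM, per length of the closest transcript and in CPM; the share climbs to 47.5% and the FPKM median from -1.02 to 4.06 as the sequences become identical.

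Counts were also added up by family, meaning a protein-coding gene and all counted pseudogenes closest to it. The 297 families with at least 1 of the 487 pseudogenes held 477 of them, and 31.2% ± 3.91 of their summed counts (SD, n = 3) were assigned to pseudogenes. In the 1086 counted families with none of them the share was 2.64% ± 0.310, and the choice by level enters this difference. In the 73 ribosomal protein families the share was 56.8%, 57.4% and 60.6% in replicates 1, 2 and 3, and in the 224 others 24.0%, 23.2% and 27.3%.

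In 17 of the 297 families more than 90% of the counts were assigned to pseudogenes in every library. For Ppia, 31 pseudogenes held 43013, 47850.0 and 34971 counts in replicates 1, 2 and 3, against 956, 1003 and 980.0 counts for Ppia itself. For Gapdh, the glycolytic enzyme gene often used as an expression standard, 136 pseudogenes held 20177, 10569 and 12497 counts, against 153, 112 and 230.0 counts for the gene. For Rpl13, 14 pseudogenes held 29763, 18618 and 33415 counts, against 1438, 932 and 1967 counts for the gene. In these 3 families every library gave the pseudogenes at least 10 times the counts of the gene.

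In the Fth1 family 1.95%, 1.89% and 3.11% of the counts of replicates 1, 2 and 3 were assigned to pseudogenes. In the Ubb family the share was 24.4% ± 1.22 (SD, n = 3) and in the Eef1a1 family 21.2% ± 1.73, beside a median of 26.5% over the 224 families outside the ribosomal proteins.

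**Figure D5:**
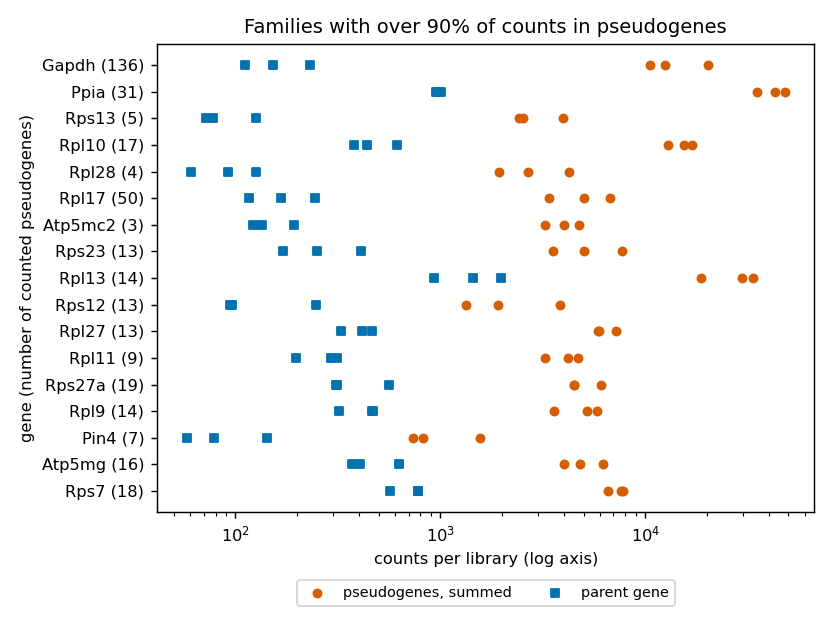
Counts per library (log axis) in the 17 families with over 90% of counts assigned to pseudogenes in every library; orange circles are the summed pseudogenes and blue squares the parent gene, with the number of counted pseudogenes in parentheses. In the Ppia family pseudogenes hold 34971 to 47850.0 counts, and Ppia holds 956 to 1003.

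Of the 487 pseudogenes, 146 (30.0%) overlapped the span of a protein-coding gene, and so did 25.1% of 4098 other counted pseudogenes. All 146 lay wholly within such a span. In FPKM, a level per gene length, 145 of the 146 lay above the surrounding gene. The mean level of the surrounding genes had a median of 1.16 FPKM and was under 1 FPKM in 67 cases. The choice by level enters the 145 of 146, since only 7 of the surrounding genes averaged 20 FPKM or more. The difference in length enters it as well, and no comparison without gene length is given here. The sources used here do not say whether counting used the strand, and reads of a pseudogene and of a gene around it cannot then be told apart.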

How the data were processed

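Single-cell amplified polyadenylated RNA of 3 libraries of 1 group was read from 1 deposited table of 57180 genes on GRCm39. The count columns are the authors' whole-number read counts per gene, and the FPKM columns the authors' deposited FPKM. The submitters' processing notes name HISAT2, StringTie and edgeR, with no versions or roles. The treatment of multi-mapping reads and of strand was not given in the sources used here. In the deposited table FPKM equalled count divided by library total and by a fixed length per gene, to within 0.0528% between libraries; for 480 members that length was the annotated span.

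Members were the pseudogene rows at 20 FPKM or more in every library. A parent was the gene whose symbol stands before -ps or -rs, or whose description stands before the word pseudogene. Named are the 20 members with the highest mean, members with a named parent, the unprocessed members, 4 on either side of the threshold and the 5 with the largest SD; other names were chosen after their values were seen. The members, lists and functional groups were chosen with earlier results of these data known. Differences use log2(FPKM + 1), which understates the change of low genes. Levels of parents were tested with limma 3.58.1 in R 4.3.3 (one-sided, mean-variance trend, genes counted in at least 1 library, adjusted p under 0.05), after a check on simulated data; TMM factors came from edgeR 4.0.16.

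Sequence features used transcripts of GENCODE M21, an annotation of an older genome build, matched by gene identifier with no coordinates; 486 members had a transcript and 466 a matching length (within 1%). The closest protein-coding transcript was found with BLAST 2.17.0, and families required it to cover at least 80% of the pseudogene. The totals per library were 14095521 to 18460546 counts. Alternative scalings, thresholds, pseudocounts, filters and leaving out each library were tried. Of the 20 leading members 1 is not reported here.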

Additional observations from a re-analysis of the deposited data

How the results depend on the processing

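The number of pseudogenes at the threshold was 708 in TPM, 347 in CPM, 498 with TMM scaling, 676 at a threshold of 10 and 303 at 50, and 582 by the mean of the libraries; leaving out a library gave 505 to 517. The count of 46 parents called above 20 FPKM moved to 70 in TPM, 89 in CPM and 0 with no filter on low values (limma, 57180 genes tested, 54 parents at an unadjusted p under 0.05), and leaving out a library gave 0 to 28, with fewer libraries to estimate the spread. The other alternatives (pseudocounts, counted in all 3 libraries, TMM scaling, no trend, parents by symbol alone) gave 40 to 47. The median difference of 2.17 became 2.23 with a pseudocount of 0.1 and 1.91 with 5, and leaving out a library gave 2.08 to 2.18. It turned to -0.65 in CPM, which drops gene length. Among alternatives chosen after seeing the data, it was 0.37 with the length of the closest parent transcript and 1.499 over 477 members and the gene of their closest transcript, and 481 members were left without mitochondrial copies. The share of counts stayed between 4.76% and 5.20% without 1 library and was 5.22% with mitochondrially encoded genes out of the total. No paired analysis was possible because all 3 libraries belong to 1 group. Counting error adds to the values of 10 members with under 100 counts in at least 1 library, the lowest at 48, and to ratios with parents as low, such as Rps13 in replicates 1 and 2.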
